A study of Mus musculus with 6 samples.

Results

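The 6 conventional actin genes, Acta1, Acta2, Actb, Actc1, Actg1 and Actg2, were followed in RNA-seq libraries of gastrocnemius (Gas) muscle from mice with and without the microRNA miR-92b. They were picked by symbol from the count table, where they are 6 of 34714 gene symbols. The study asked how loss of miR-92b alters skeletal muscle. The control group (WT) was C57BL/6 mice and the other group (M92KO) was miR-92b-/- mice of a C57BL/6JGpt strain, in which the gene is deleted in every tissue rather than in muscle alone. All mice were 8 weeks old and untreated, and each group has 3 libraries. The labels number the replicates but do not say whether the mice were littermates, so the p-values measure only the spread between these samples. The deleted gene itself, Mir92b, was not analysed here.

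Actins are the globular proteins that assemble into filaments, and mammals make them from separate genes whose proteins are nearly identical. Acta1 encodes the skeletal muscle actin of the thin filament, on which myosin pulls. Actc1 encodes cardiac actin, the actin of the adult heart and of fetal skeletal muscle. Acta2 encodes the actin of vascular smooth muscle and Actg2 that of the gut and other visceral smooth muscle. Actb and Actg1 encode the cytoplasmic β- and γ-actins, which build the cortex and the cytoskeleton of nearly all cells. Serum response factor (SRF) and its actin-sensing partners of the MRTF family are known regulators of actin genes, and SRF binds a short element called the CArG box.

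The genes lie on 6 chromosomes and are all on the minus strand of GRCm38. GENCODE M21 places Acta1 (ENSMUSG00000031972) at chr8:123891769-123894751 and Actc1 (ENSMUSG00000068614) at chr2:114047282-114053548. Acta2 (ENSMUSG00000035783) lies at chr19:34241090-34255590 and Actg2 (ENSMUSG00000059430) at chr6:83512905-83536265. Actb (ENSMUSG00000029580) lies at chr5:142903115-142906754 and Actg1 (ENSMUSG00000062825) at chr11:120345690-120348542. The coding sequences of Actb and Actg1 were identical at 88.65% of aligned bases, the highest of the 15 pairs, followed by Acta1 and Actc1 at 86.16%. Shared sequence bears on the counts, because a read that fits several genes can be assigned to any of them or dropped. Of all stretches of 50 bases in the longest coding transcript, 56.7% recur in a transcript of another gene for Actg1 and 14.22% for Actb. The share was 2.219% for Acta1 and 0.3525% for Acta2, and no stretch of Actc1 or Actg2 recurred. Counting only the other actins, the largest share was 2.565%, for Actb, and no stretch of 100 bases was shared between actins. Of stretches of 100 bases, 51.05% recurred in another gene for Actg1 and 1.098% for Actb. Most of the Actg1 stretches recur in pseudogenes of this actin such as Gm12715 and Gm8399, for which the table has no counts under these symbols, so the Actg1 counts, and to a lesser degree those of Actb, are uncertain. Exons of Actg1 also overlap 2 annotated microRNA genes.

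The microRNA sequences are shown because the groups differ in this gene. The RefSeq mature sequences are printed 5′ to 3′ with the seed, bases 2 to 8, in capitals. Both arms of miR-92b come from the minus strand of chromosome 3 of GRCm38.p6, miR-92b-3p from chr3:89227126-89227147 and miR-92b-5p from chr3:89227165-89227188. miR-92a-3p, from the plus strand at chr14:115044476-115044496, has the seed of miR-92b-3p and was not deleted.
miR-92b-3p: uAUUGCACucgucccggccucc
miR-92a-3p: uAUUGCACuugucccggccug
miR-92b-5p: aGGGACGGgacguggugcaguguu
None of the 6 actin genes has a match to bases 2 to 8, or to bases 2 to 7, of these seeds in the annotated 3′-UTR of its longest coding transcript. Of 20921 genes with such a 3′-UTR, 12.7% hold a match for miR-92b-3p and 4.27% one for miR-92b-5p. These shares count matches to bases 2 to 8, and also matches to bases 2 to 7 followed by an A. The 3′-UTRs of the actins are short, from 80 bases in Actg2 to 700 bases in Actg1, against a median of 967 bases. The absence of a match says only that these letters are not in these stretches.

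CArG boxes were searched in the window from 250 bases before to 50 bases after each RefSeq start site, on both strands. The pattern was CC, 6 bases of A or T, then GG, and boxes that depart from it were not searched for. The table of promoters holds 4 of the 6 actins. A box of this pattern was found in the windows of Acta1, Actc1 and Actg1 and not in that of Acta2. Of 32851 promoters, 1.63% hold one. Whether the Acta2 window holds a box of another form was not examined. The boxes are shown because they are the element that skeletal, cardiac and cytoplasmic actin genes have in common in these windows. The 30 bases around each are printed 5′ to 3′ on the minus strand of GRCm38.p6 with the box in capitals. They lie at chr8:123894829-123894858 for Acta1, chr2:114052903-114052932 for Actc1 and chr11:120348566-120348595 for Actg1, and the boxes lie 73, 47 and 90 bases before the start site.
Acta1: tgcccgacacCCAAATATGGcttgggaagg
Actc1: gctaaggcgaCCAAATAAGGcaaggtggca
Actg1: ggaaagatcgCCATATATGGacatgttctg
These matches are descriptions of sequence, and binding by SRF was not measured.

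The 6 libraries held between 33160508 and 48209846 counts, with the M92KO libraries the smaller ones. Of the symbols in the table, 15788 passed the filter on low counts, and all 6 actins were among them. Values are given as CPM, the counts scaled to the TMM-normalised library size, and differences as log2 fold changes of M92KO against WT from edgeR's quasi-likelihood test with Benjamini-Hochberg adjustment over all genes tested. That test called 0 genes after adjustment and 1955 at an unadjusted p-value of 0.05, the threshold the study used, and DESeq2 called 312 after adjustment. M92KO library 1 stood apart from the other M92KO libraries: without it, the test called 2984 genes before and 399 after adjustment. Markers of fast fibres such as Myh4 and Myh1 were abundant in all libraries, with the list of 8 summing to between 90016 and 101037 CPM, while the 6 cardiac markers together stayed between 5.91 and 9.50 CPM.

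Per length of transcript, Acta1 stood far above the other actins in every library. It reached 18359 ± 626 CPM per kb in WT and 18448 ± 162 in M92KO muscles (mean ± SD, n = 3 each). Actc1 followed in WT muscles at 272 ± 70.7 CPM per kb, with Actb at 217 ± 8.39 and Actg1 at 214 ± 12.7. These 3 neighbours in the order did not differ beyond their spread, since the WT libraries of Actc1 ran from 192 to 328 CPM per kb. In M92KO muscles the order of the same 3 was Actb at 184 ± 19.3, Actg1 at 168 ± 17.1 and Actc1 at 151 ± 40.1 CPM per kb, again with overlapping libraries. Acta2 came next at 38.2 ± 2.79 in WT and 37.5 ± 6.54 in M92KO, and Actg2 was near the floor of detection at 0.423 ± 0.0975 and 0.763 ± 0.557 CPM per kb.

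**Figure D1:**
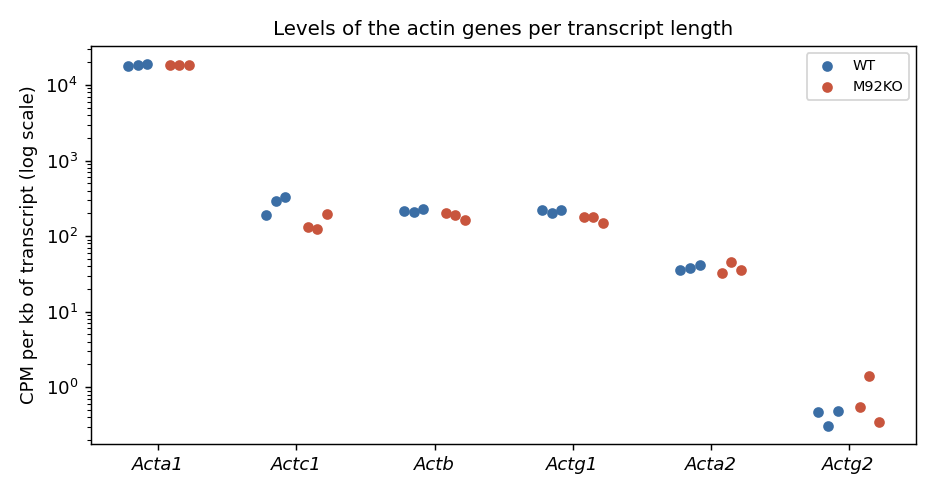
Level of each actin gene per length of its longest coding transcript (CPM per kb, log axis) in the 3 WT (blue) and 3 M92KO (orange) libraries, with points in order of replicate. Acta1 sits near 18359 CPM per kb, its WT mean, in all libraries, Actc1, Actb and Actg1 lie between 122 and 328, and Actg2 stays under 1.40.

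Acta1, the actin of the thin filament, had the highest mean CPM over the 6 libraries of all genes tested, although Myh4 had more counts in WT library 3 and M92KO library 1. Acta1 took between 2.63% and 2.72% of all counts in each of the 6 libraries. Its levels in WT libraries 1 to 3 were 25633, 26563 and 27444 CPM, and in M92KO libraries 1 to 3 they were 26406, 26787 and 26835 CPM. All M92KO values lay inside the WT range. The log2 fold change was 0.01 with a 95% interval from -0.22 to 0.24 (edgeR, SE 0.10, adjusted p = 0.986).

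Actc1, the cardiac and fetal actin, was lower in M92KO muscles by the largest factor among the actins. The WT libraries 1 to 3 had 283, 433 and 484 CPM. The M92KO libraries 1 to 3 had 197, 180 and 290 CPM. The groups overlapped, because M92KO library 3 stood slightly above WT library 1, and the spread within each group was about 26% of its mean. The mean in M92KO muscles was 55.6% of that in WT muscles. The log2 fold change was -0.85 with an interval from -1.36 to -0.33 (edgeR, SE 0.22, unadjusted p = 0.00487, adjusted p = 0.214). It kept its sign and an unadjusted p-value under 0.05 without each library in turn, with values from -1.08 to -0.69. Set against Acta1 within each library, Actc1 had 11.1, 16.3 and 17.6 counts per 1000 Acta1 counts in WT and 7.47, 6.73 and 10.8 in M92KO. On this scale the groups no longer overlapped (exact two-sided permutation test, p = 0.1, the smallest that 3 against 3 libraries allow).

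Markers of the cells and fibres in which Actc1 is known were set beside it. Of 8 markers of slow fibres, 1 passed an unadjusted p-value of 0.05, where 12.4% of all genes tested did. It was the tropomyosin gene Tpm3, with a log2 fold change of -0.31 (edgeR, adjusted p = 0.255). The list had a median of -0.26 against -0.0001 for all genes tested, and 2 of the 8 were positive. It summed to between 245 and 332 CPM in WT and between 178 and 275 CPM in M92KO libraries. Most of this sum was Myl3, Atp2a2 and Tpm3. Myl3 varied within both groups, with 169, 186 and 79.0 CPM in WT and 67.4, 68.6 and 148 CPM in M92KO libraries. Single libraries moved the median of the list: it was -0.03, with 4 of 8 positive, without WT library 3, -0.11 without M92KO library 1 and -0.41 without WT library 1. The slow-fibre genes that passed, all of them lower, numbered 3 without M92KO library 3. They numbered 2 without WT library 3, M92KO library 1 or M92KO library 2. Of the cardiac markers, 0 of the 5 tested passed, with a median of -0.10 that ranged from -0.26 to 0.07 without 1 library, and Nppb was at 0 in every library. Markers of developing or regenerating fibres summed to between 354 and 404 CPM in WT and between 358 and 388 CPM in M92KO, and 0 of the 6 tested passed, with 1 passing without WT library 1, WT library 2 or M92KO library 1. In whole muscle, fewer cells of a type and less RNA per cell cannot be told apart, and the part of any cell or fibre type in the level of Actc1 was not tested.

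**Figure D2:**
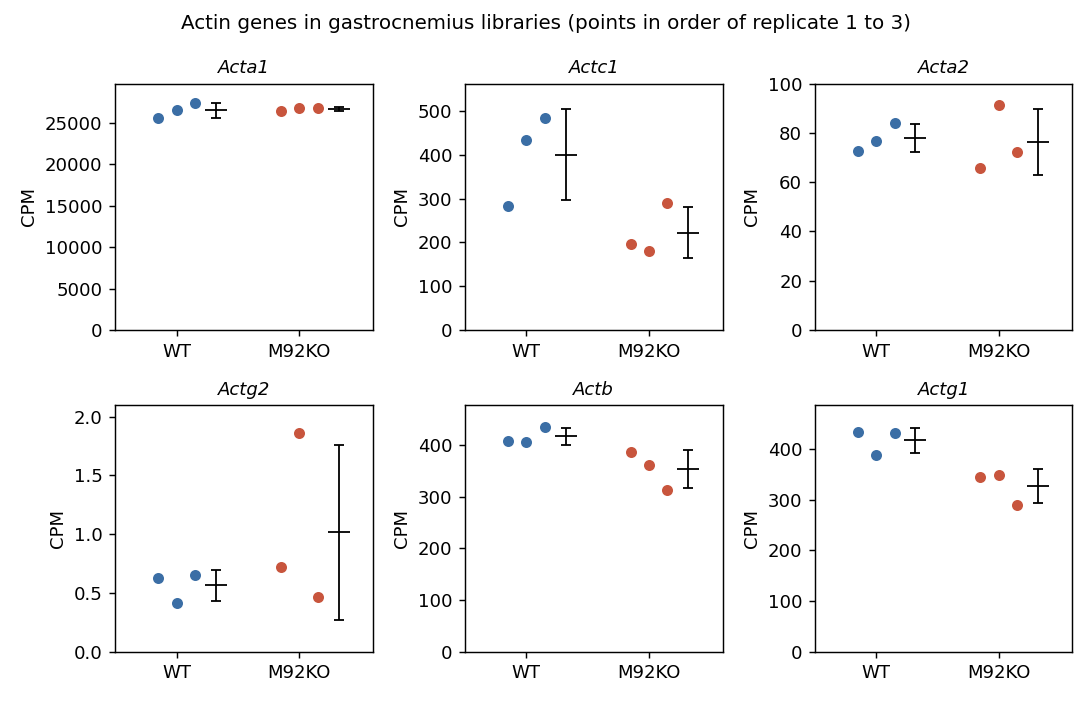
Level of each actin gene (CPM, linear axes from 0) in the 3 WT (blue) and 3 M92KO (orange) libraries, with points in order of replicate and the mean ± SD beside them. The M92KO points of Actb and Actg1 all lie below the WT points, those of Actc1 overlap the lowest WT point of 283 CPM, and M92KO library 2 stands out for Actg2 at 1.86 CPM.

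Neither smooth muscle actin passed the threshold. Acta2 had 72.7, 76.8 and 83.9 CPM in WT libraries 1 to 3 and 65.7, 91.3 and 72.2 CPM in M92KO libraries 1 to 3. The M92KO libraries lay on both sides of the WT range. The log2 fold change was -0.03 with an interval from -0.30 to 0.25 (edgeR, SE 0.12, adjusted p = 0.953). Actg2 was counted only 29, 16 and 31 times in the WT libraries and 25, 61 and 17 times in the M92KO libraries. At these counts its log2 fold change of 0.83 had an interval from -0.30 to 1.95 (edgeR, SE 0.49, adjusted p = 0.558). M92KO library 2 decided that value, which was 0.06 without it, and 1.18 without M92KO library 3 (unadjusted p = 0.0318, adjusted p = 0.425).

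Markers of smooth muscle and pericytes, the cells in which Acta2 is known, are given beside it. The 6 pericyte markers, most of whose sum is Rgs5 and Abcc9, summed to between 1413 and 1472 CPM in WT libraries. In M92KO libraries they summed to between 1227 and 1388 CPM, lower without overlap. The 9 smooth muscle markers, most of whose sum is Des, summed to between 2778 and 2813 CPM in WT and between 2999 and 3373 CPM in M92KO, higher without overlap (exact two-sided permutation test, p = 0.1 for each list). Of 9 smooth muscle markers, Des passed an unadjusted p-value of 0.05 at a log2 fold change of 0.23 and Mylk, the myosin light chain kinase, at -0.28. Des encodes desmin, which skeletal fibres also make in quantity. Myh11, the smooth muscle myosin heavy chain, had 86.2 ± 3.33 CPM in WT and 86.3 ± 10.6 CPM in M92KO (n = 3 each). Among 6 pericyte markers, Cspg4 passed at 0.43 and Rgs5 at -0.19. Over all genes tested, 5.47% passed as higher and 6.92% as lower. The median log2 fold change was 0.08 for the smooth muscle and -0.01 for the pericyte list. Some calls in these lists moved with single libraries. Without M92KO library 1 the smooth muscle list held 3 higher genes, and without WT library 1 it held 0 higher genes. It kept 1 lower gene whichever library was left out. Without M92KO library 2 the pericyte list held 0 calls. The part of these cells in the level of Acta2 was not tested.

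Both cytoplasmic actins were lower in M92KO muscles. Actb had 409, 407 and 436 CPM in WT libraries 1 to 3 and 387, 361 and 314 CPM in M92KO libraries 1 to 3. Actg1 had 433, 389 and 432 CPM in the WT and 345, 348 and 289 CPM in the M92KO libraries. For both genes every M92KO library lay below every WT library, and M92KO library 3 was the lowest of all. The M92KO mean was 84.9% of the WT mean for Actb and 78.3% for Actg1. The log2 fold change of Actb was -0.24 with an interval from -0.44 to -0.03 (edgeR, SE 0.09, unadjusted p = 0.0268, adjusted p = 0.348). That of Actg1 was -0.35 with an interval from -0.56 to -0.14 (edgeR, SE 0.09, unadjusted p = 0.00426, adjusted p = 0.214). DESeq2's Wald test gave Actg1 an adjusted p-value of 0.0269 and was the only alternative in which an actin passed after adjustment, where DESeq2 called 2.19% of the 14253 genes with an adjusted p-value. The Actb call was lost without WT library 1, WT library 3 or M92KO library 3, at log2 fold changes of -0.25, -0.21 and -0.16. It was also lost with the study's own limma steps, at -0.27, and with the replicate number as a block, at -0.24. Actg1 kept an unadjusted p-value under 0.05 in every alternative run.

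The 2 cytoplasmic actins were counted in nearly equal numbers. The ratio of Actb to Actg1 counts was 0.943, 1.04 and 1.01 in the WT and 1.12, 1.04 and 1.09 in the M92KO libraries. The groups overlapped (exact two-sided permutation test, p = 0.2). Across the 6 libraries the log2 CPM of both genes had a Pearson r of 0.941, as a description of libraries that share a genotype difference in both genes. Summed, Actb and Actg1 came to 835 ± 36.0 CPM in WT and 681 ± 68.9 CPM in M92KO muscles, with no overlap between the libraries (n = 3 each, exact two-sided permutation test, p = 0.1).

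Markers of the non-muscle cells of the tissue were set beside the cytoplasmic actins. All 6 fibroblast markers had a negative log2 fold change, with a median of -0.46. Dcn, Col1a2 and Col1a1, which encode decorin and the chains of type I collagen, passed an unadjusted p-value of 0.05 at -0.33, -0.53 and -0.55. Over all genes tested, 6.92% passed as lower. The 6 fibroblast markers summed to between 1671 and 2305 CPM in WT and between 1156 and 1557 CPM in M92KO libraries, without overlap. The sum was lowest in M92KO library 1, and Actb and Actg1 were lowest in M92KO library 3. Without WT library 1, 1 of the 6 was positive and passed as higher, 2 passed as lower and the median was -0.27. Of 5 endothelial markers 0 passed, with a median of -0.08, but without M92KO library 2 all 5 were negative, 3 passed and the median was -0.20, and without M92KO library 1 the median was 0.01. Of 4 leukocyte markers tested, Ptprc passed at -0.53, while 0 passed as lower without WT library 2, WT library 3 or M92KO library 2, and the list, which also holds Cd3e, summed to between 18.0 and 27.0 CPM over all libraries. The part of these cells in the level of the cytoplasmic actins was not tested.

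**Figure D3:**
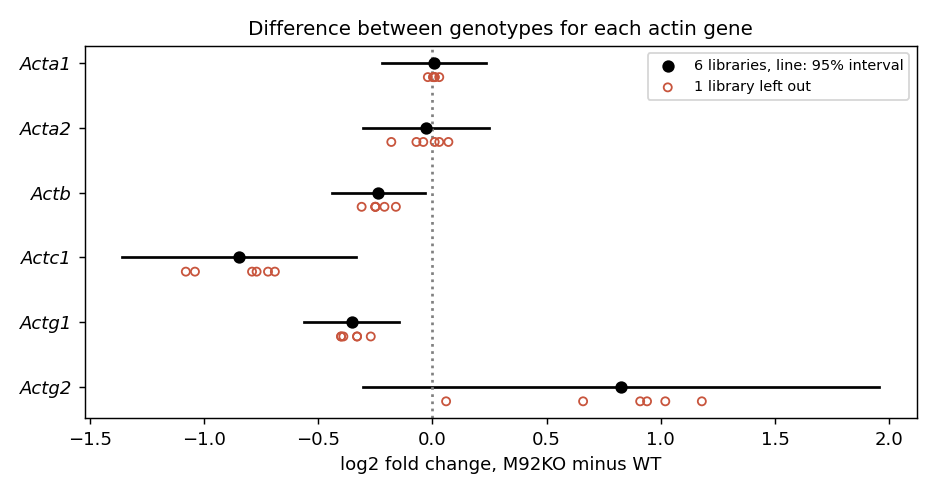
Log2 fold change of each actin gene in M92KO against WT muscles from edgeR (black points, lines for the 95% interval) with the values after leaving out 1 library at a time (open circles). The intervals of Actb, Actc1 and Actg1 lie below 0, that of Acta1 runs from -0.22 to 0.24, and the circles of Actg2 spread from 0.06 to 1.18.

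In all, 3 of the 6 actins had an unadjusted p-value under 0.05 and all 3 were lower in M92KO muscles, where 6.92% of all genes tested were called in that direction and 12.4% in either direction. The libraries of 2 of the 6, Actb and Actg1, did not overlap and were lower, against 9.58% of all genes tested. The median log2 fold change over the actins was -0.13. With 6 members these shares describe the genes named and nothing wider.

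The sum of the 6 actins, nearly all of it Acta1, differed by less than the spread between replicates. It was 26832, 27869 and 28879 CPM in WT libraries 1 to 3 and 27402, 27770 and 27800 CPM in M92KO libraries 1 to 3. The groups overlapped (exact two-sided permutation test on the log2 sum, p = 0.7). The composition was given as shares of the levels per length. Acta1 made up 96.4%, 96.1% and 95.9% in the WT and 97.1%, 97.2% and 97.1% in the M92KO libraries, without overlap. The share of Actc1 was 1.41% ± 0.324 in WT and 0.795% ± 0.207 in M92KO muscles, that of Actb 1.14% ± 0.0259 and 0.972% ± 0.109, and that of Actg1 1.12% ± 0.0819 and 0.883% ± 0.0940 (n = 3 each). The exact permutation test gave p = 0.1 for each of these 4 shares, which is the smallest the design allows, and 0.15 after adjustment over the 6 shares. The shares of a library are parts of the same whole, so these 4 tests are not separate results. A higher share of Acta1 goes with lower shares of the others, and its own level had a log2 fold change of 0.01.

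Actin is also the reference of the study's qPCR, and the study followed up Ugp2, which encodes the enzyme that makes UDP-glucose for glycogen synthesis, and Slc16a3, which encodes the lactate transporter MCT4. These genes were therefore set against Actb within each library. Ugp2 had 1402, 1347 and 1116 CPM in WT and 1602, 2385 and 2286 CPM in M92KO libraries 1 to 3, a mean log2 difference of 0.68. Per Actb count it had 3.43, 3.31 and 2.56 counts in WT against 4.14, 6.61 and 7.28 in M92KO, a mean log2 difference of 0.92. Slc16a3 had 446, 411 and 401 CPM in WT and 571, 611 and 575 CPM in M92KO, a mean log2 difference of 0.48. Per Actb count it had 1.09, 1.01 and 0.921 counts in WT against 1.47, 1.69 and 1.83 in M92KO, a mean log2 difference of 0.72. The primers of the study's β-actin and Actc1 assays are shown because the first set the reference scale and the second measured a gene of this family. They are printed 5′ to 3′ with no part in capitals.
Actb forward: ggctgtattcccctccatcg
Actb reverse: ccagttggtaacaatgccatgt
Actc1 forward: ctggattctggcgatggtgta
Actc1 reverse: cggacaatttcacgttcagca
Each primer matched the longest coding transcript of its own actin without a mismatch, inside the coding sequence, and no transcript of another gene. The β-actin pair frames 154 bases of the Actb transcript, and its forward primer had at least 3 mismatches to Actg1 and at least 2 to Acta1, Acta2 and Actg2. The Actc1 pair frames 173 bases, with at least 4 mismatches of the forward and 3 of the reverse primer to Acta1. The count ratios above use all reads of a gene and not these stretches.

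On both scales the libraries of the groups did not overlap for either Ugp2 or Slc16a3 (exact two-sided permutation test, p = 0.1 in each case). As folds, the differences were 1.61 by library size and 1.90 by Actb for Ugp2, and 1.40 and 1.65 for Slc16a3. With Actg1 as the reference in place of Actb, the log2 differences were 1.04 for Ugp2 and 0.84 for Slc16a3.

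**Figure D4:**
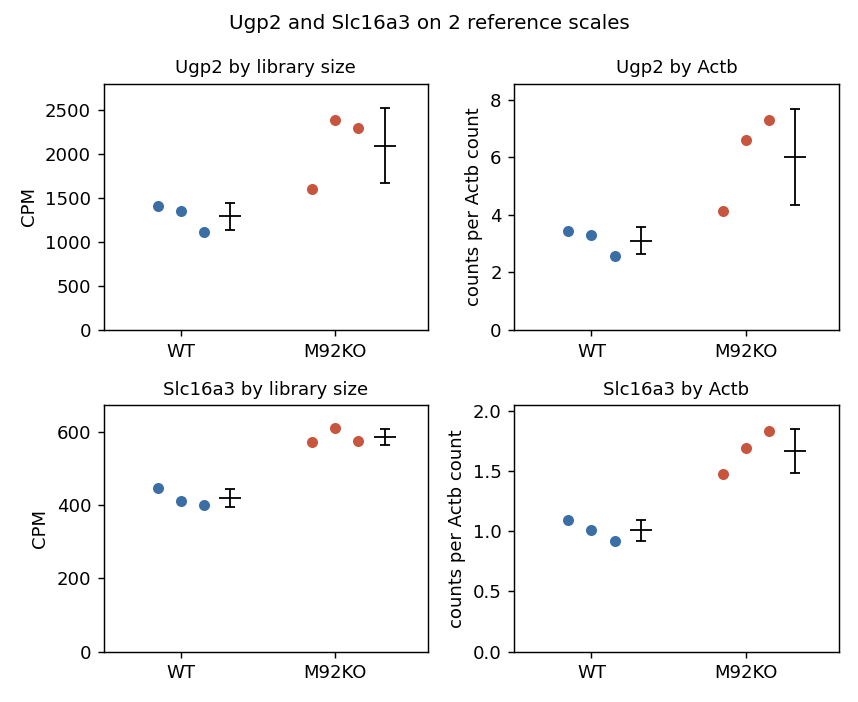
Ugp2 (top) and Slc16a3 (bottom) in the 3 WT (blue) and 3 M92KO (orange) libraries as CPM (left) and as counts per Actb count (right), with the mean ± SD beside the points, on linear axes from 0. Both genes are higher in every M92KO library on both scales, and the mean log2 difference of Ugp2 is 0.68 on the left and 0.92 on the right.

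Genes that bind, fold, cap or branch actin, and regulators and targets of SRF and MRTF, were followed in 5 lists of 76 genes in all. Each gene was tested. At an unadjusted p-value of 0.05, 12 were higher and 7 lower in M92KO muscles, or 19 in all, where 5.47% of all genes tested were called higher and 6.92% lower, and 0 passed after adjustment in edgeR. The list median was 0.05. The count depended on M92KO library 1, without which it was 29, and on WT library 2, without which it was 12.

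The folding list holds the subunits of the chaperonin CCT and of prefoldin, which fold newly made actin, with the enzymes Setd3 and Naa80 that modify it. All 17 members had a positive log2 fold change, with a median of 0.12, 4 passed an unadjusted p-value of 0.05 as higher and 0 as lower, and with the study's limma steps 7 passed. With offsets for GC content and length, or without M92KO library 1, 16 of the 17 were positive. Pfdn2, a prefoldin subunit, had 45.28 ± 0.900 CPM in WT and 56.9 ± 3.11 CPM in M92KO (n = 3 each), a log2 fold change of 0.33 ± 0.07 (edgeR, SE, adjusted p = 0.179). The CCT subunit genes Cct6a and Cct3 followed at 0.22 and 0.23. The summed level of the list ran from 1557 to 1664 CPM in WT and from 1744 to 1776 CPM in M92KO libraries, without overlap (exact two-sided permutation test, p = 0.1).

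In the list of monomer binding and turnover, 3 of 17 were higher, 1 was lower and the median was -0.01, and without WT library 1 only 2 passed. Pfn1, which encodes profilin, the protein that loads actin monomers with ATP, had 104, 108 and 112 CPM in WT and 206, 126 and 143 CPM in M92KO libraries, a log2 fold change of 0.55 (edgeR, adjusted p = 0.249). Cap2, the striated muscle cyclase-associated protein that recycles monomers, had a value of 0.40, and Coro6, a coronin, one of 0.20. The gene for thymosin β4, Tmsb4x, which sequesters monomers, had 309 ± 30.5 CPM in WT and 296 ± 13.0 CPM in M92KO (n = 3 each), a log2 fold change of -0.06.

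In the list of thin filament length and capping, 3 of 17 were higher, 1 was lower and the median was 0.06. Klhl40 and Klhl41, which encode kelch proteins that stabilise nebulin and leiomodin, were at 0.46 and 0.49, and Xirp1, an actin-binding repeat protein of the myotendinous junction, at 1.29 (edgeR, adjusted p from 0.231 to 0.281). Klhl41 had 716, 786 and 756 CPM in WT and 777, 1221 and 1175 CPM in M92KO libraries, so M92KO library 1 lay within the WT range. Xirp1 had 221, 170 and 209 CPM in WT and 201, 528 and 740 CPM in M92KO, and again the first M92KO library lay within the WT range. Neb, the nebulin gene that spans the thin filament, had a log2 fold change of 0.23 (adjusted p = 0.531), and Tmod1, the cap of its pointed end, 0.06. Without M92KO library 1 the list held 8 higher and 2 lower genes, with the GC and length offsets 6 and 1, and with the study's limma steps 1 and 0.

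In the list of branched filament assembly, which holds the Arp2/3 complex and its activators, 1 of 12 was higher and 2 were lower, with a median of -0.03. Without WT library 2 only 1 passed, without M92KO library 1 the median was 0.01 with 7 of 12 positive, and with the study's limma steps 3 were higher and 3 lower. Arpc5l was at 0.22, its paralogue Arpc5 at -0.16 and the activator gene Wasf2 at -0.23. Of 13 regulators and targets of SRF, 1 was higher and 3 were lower, with a median of -0.03, and only 2 passed without WT library 2 or with the study's limma steps. Srf itself had 89.5 ± 2.54 CPM in WT and 89.4 ± 0.481 CPM in M92KO (n = 3 each), a log2 fold change of 0.00. The cytoskeletal targets Tpm4 and Flna, which encode a tropomyosin and filamin A, were at -0.27 and -0.28, with no overlap between the groups. Fhl1, a LIM protein abundant in muscle, had 1987, 2373 and 1534 CPM in WT and 2076, 6155 and 4682 CPM in M92KO libraries, a log2 fold change of 1.13 (edgeR, adjusted p = 0.258).

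**Figure D5:**
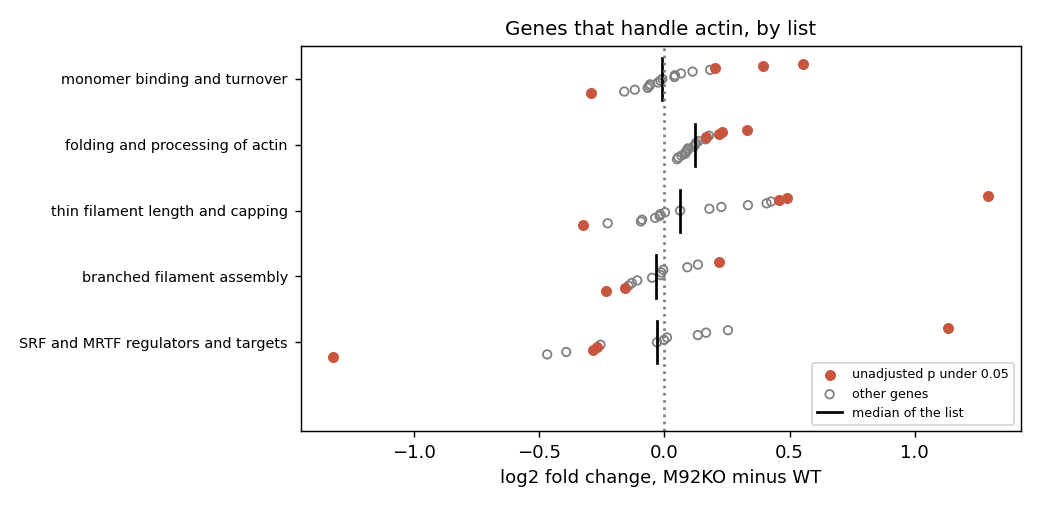
Log2 fold change in M92KO against WT muscles of each gene in the 5 lists of genes that handle actin or belong to the SRF and MRTF list. Filled points mark an unadjusted edgeR p-value under 0.05, open points the other genes and a bar each list's median. All 17 genes of the folding list lie above 0, and the other lists spread to both sides.

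Actin-related genes outside the 6 were counted as well. Of 20 symbols for actin-like and actin-related proteins, 10 passed the filter: Actl6a, Actr1a, Actr1b, Actr2, Actr3, Actr3b, Actr5, Actr6, Actr8 and Actr10. Of these, 1 had an unadjusted p-value under 0.05, where 12.4% of all genes tested did. It was Actr3b, a relative of the Arp3 subunit, with 440, 328 and 300 counts in WT against 537, 338 and 475 in M92KO. Its log2 fold change was 0.68 (edgeR, adjusted p = 0.232). Actbl2, a further β-like actin gene, was at 0 in all 6 libraries, which at a floor of 3 counts allows up to 0.0916 CPM in the smallest library.

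The genes whose log2 CPM over the 6 libraries was most like that of each actin were taken from 8740 genes with a mean of at least 10 CPM (8741 for Actg2). For Acta1 they were Mpp3, Myh8 and Tmem267, with Pearson r from 0.951 to 0.958. For Actc1 they were Msra, Sec14l1 and Nacc2 (0.984 to 0.997), for Acta2 Mdfic, Chd8 and Slc35a3 (0.965 to 0.983) and for Actg2 Ddx20, Ankmy2 and Tmem183a (0.978 to 0.991). For Actb they were Slc39a3, Zfp746 and Dll1 (0.983 to 0.988), and for Actg1 they were Tie1, Zfp507 and Arf6 (0.986 to 0.992). These are the highest of all those values over only 6 libraries and are given as a description.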

How the data were processed

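RNA-seq of Gas muscle from 3 WT and 3 M92KO mice was analysed from the table of raw read counts per gene symbol deposited by the authors, without normalisation. RNA was made into libraries with a SMARTer mRNA-seq kit per the labels. The submitters' processing notes name the builds GRCm38 and mm10. The aligner, the counting program, its annotation and its strand setting are not given in the sources used here, so reads shared between actin paralogues, pseudogenes or overlapping genes may be split or lost. Samples were grouped by their titles. The members and the gene lists were chosen with earlier results of these data known.

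Counts were filtered with filterByExpr (minimum count 10, minimum total 15), normalised with TMM and tested with the quasi-likelihood test of edgeR 4.0.16 (R 4.3.3) without covariates, over all genes. The lists were described by counts and medians. Totals of 33160508 to 48209846 counts put a floor of 3 counts at 0.0628 to 0.0916 CPM, and floors cover counting error only. Levels per length used the longest coding transcript of GENCODE M21. Single values were compared by exact two-sided permutation tests in scipy 1.17.1, whose smallest p-value here is 0.1. Pearson r used log2(CPM + 0.1). The genes named besides the actins were the 3 most like each actin, in each list the genes of lowest p-value up to 3, list genes at 0, actin-like genes over the filter, Ugp2 and Slc16a3. Myh4, Myh1, Myh11, Myl3, Atp2a2, Abcc9, Tmsb4x, Neb, Tmod1, Srf, Actbl2 and the pseudogenes were named after their values were seen.

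Alternatives were DESeq2 1.42.0 (size factors and Wald test), other filters, library sizes without the actins, the steps of the study's methods (quantile normalisation, log2 of the value plus 1, limma 3.58.1), the replicate number as a block, and leaving out each library. Offsets for GC content and length (lowess span 0.3) and lengths of all annotated exons were added after seeing the data. The main edgeR fit, the fit with the replicate block, DESeq2 and the study's steps were run on simulated data. The other alternatives were not. Primer sequences came from the study's supplement, and other sequences from RefSeq (GRCm38.p6): 4 of the 6 actins matched its promoter table.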

Additional observations from a re-analysis of the deposited data

How the results depend on the processing

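Actc1 and Actg1 kept their direction and an unadjusted p-value under 0.05 in all 15 alternatives, with log2 fold changes from -1.08 to -0.69 and from -0.40 to -0.27. Actb stayed negative in all 15 and lost the threshold with the study's limma steps (-0.27), with the replicate block (-0.24) and without 3 libraries, with values from -0.31 to -0.16 over the libraries left out. Acta1 turned to -0.03 with GC and length offsets, with and without the block, and ranged from -0.02 to 0.03 without 1 library. Without 1 library Acta2 ranged from -0.18 to 0.07 and Actg2 from 0.06 to 1.18. The causes were not tested.

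Actins called after adjustment numbered 0, and 1 with DESeq2's Wald test. Genes of the whole table called after adjustment numbered 0, and 312 with DESeq2's Wald test, 6 without a filter, 42 with the study's limma steps, 2 with the block and 2 with the block and offsets, and from 0 to 399 without 1 library. Genes at an unadjusted p-value under 0.05 ranged from 1221 to 2984 without 1 library, and those of the actin lists from 12 to 29. The split of these calls over the whole table moved from 863 of 1955 higher to 1244 of 2287 with the study's limma steps. Without M92KO library 1 it was 1545 of 2984.

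Same-numbered libraries of the groups hardly deviated together, with r of 0.0806, 0.0376 and 0.0151, against -0.0686 to 0.0365 for the other combinations. With 3 libraries per group, these values cannot decide whether the numbers pair the mice. With the replicate block, 1691 genes passed before adjustment, and of the actins only Actb changed its call. The summed level, the composition and the ratios to Actb moved by less than the SD of the more variable group in every alternative, but in some by more than the SD of the other group: the log2 ratio of Ugp2 to Actb went from 0.925 to 1.17 without M92KO replicate 1, and the Acta1 share difference from 1.02 to 1.16 percentage points with plain counts. Depth limits Actg2, with at most 61 counts in a library.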
